A study of Homo sapiens with 10 samples.

Results

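The genes examined were GADD45A, GADD45B, GADD45G, BTG1, BTG2, TP53INP1, SESN1, MDM2, PLK3 and ZMAT3, which are known as p53 targets, in PC-3 cells. They were chosen by gene name: every spot other than a control spot whose gene name in the scanner output was one of these 10 symbols was taken, which gave 22 spots of 13 probes. Of the 10 genes, 9 (all but GADD45G) stand among the 19718 genes that were tested. Gene expression had been measured on single-color whole human genome oligonucleotide arrays with 2 biological replicates in each of 5 groups: untreated cells at 0 h, and cells 24 h after addition of the solvent DMSO, of luteolin, of gefitinib, or of both drugs together, each drug at 60 µM. PC-3 is an established human prostate cancer line, luteolin is a plant flavonoid, and gefitinib is an inhibitor of the epidermal growth factor receptor kinase. All arrays carried RNA of this single line, and both drugs were added in DMSO. In RNA from a whole dish, a change in all cells and a change in some of them cannot be told apart.

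p53 is a transcription factor that is stabilized after DNA damage and other stress, and its targets stop the cell cycle, repair DNA, change metabolism or start cell death. MDM2 is both a target and the ubiquitin ligase that removes p53, so that the response limits itself. Many of these targets also have inputs that do not need p53, among them the stress factors ATF4 and ATF3, the FOXO factors, EGR1, NF-κB and SMAD proteins.

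Each value below is the log2 of the processed spot signal minus the log2 of the 75th percentile of that array, so that 0 marks the 75th percentile and a difference of 1 is 2-fold. A gene was called changed when the adjusted p from limma, adjusted over 28776 probes, was under 0.05 and the difference was at least 2-fold. Where a gene had several probes, the brighter one stands for it. The 75th percentile of the signal was lower on the gefitinib arrays (651 and 628) and on the arrays with both drugs (865 and 540) than on the DMSO arrays (1350 and 1283) or the luteolin arrays (1173 and 1041), and the share of probes well above background ranged from 63.4% to 70.4% over the arrays. The 10 arrays lay on 3 slides. Of the markers used to check the line, the androgen receptor probe was well above background on 0 of 10 arrays, all 4 epithelial markers (KRT8, KRT18, KRT19 and EPCAM) were well above background on all arrays, and KLK3, an androgen-responsive gene, was well above background on all 10 arrays with 1 of its 3 probes and on none with the others. Of the markers of other cell types, 0 of 4 for fibroblasts, 2 of 3 for leukocytes (CD3E and CD68, not PTPRC) and 1 of 2 for endothelium (PECAM1, not VWF) were well above background on all arrays. Of the fibroblast markers, COL1A1 and COL3A1 were well above background on 9 arrays each, and DCN and PDGFRB on 0.

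The groups below are those of the sample labels. For the 6 drug-treated arrays, the deposited file of each array is named for a different treatment: the arrays labelled luteolin have gefitinib in the file name, those labelled gefitinib have both drugs, and those labelled luteolin plus gefitinib have luteolin. If the file names are right, each value given here for luteolin is that of gefitinib, each value for gefitinib is that of both drugs, and each value for both drugs is that of luteolin. The values themselves, the counts over the 3 drug-treated groups and the differences between these groups are the same under either reading, while the interaction of the drugs is not.

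On hg18, the build of the files, the probes lay for example at chr19:2429178-2429237 for GADD45B, chr12:91061679-91061738 for BTG1, chr1:201545077-201545136 for BTG2 and chr6:109415170-109415229 for SESN1, and no annotation of that build was used here. The promoters of 5 members that passed the test in at least 1 comparison are shown first, since they carry the letters at which p53 and other factors could act. The RefSeq promoter table (GRCh38.p14) held 14 entries for 8 of the 10 members, and none for GADD45A or TP53INP1. The 250 bases before each start site are printed 5′ to 3′ on the strand of the gene. Capitals mark matches to any of 6 motifs other than the GC box, searched on both strands.

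GADD45B, chr19:2475877-2476126, + strand: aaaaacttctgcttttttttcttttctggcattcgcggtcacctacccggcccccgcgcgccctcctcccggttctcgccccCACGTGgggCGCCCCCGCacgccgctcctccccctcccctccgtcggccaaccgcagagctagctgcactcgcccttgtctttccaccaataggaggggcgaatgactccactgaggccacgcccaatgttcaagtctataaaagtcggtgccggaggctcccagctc
BTG1, chr12:92145847-92146096, - strand: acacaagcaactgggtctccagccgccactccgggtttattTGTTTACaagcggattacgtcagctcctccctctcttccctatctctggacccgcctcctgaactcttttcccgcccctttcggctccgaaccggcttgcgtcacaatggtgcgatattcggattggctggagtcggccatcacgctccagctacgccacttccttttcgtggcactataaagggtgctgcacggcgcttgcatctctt
BTG2, chr1:203305269-203305518, + strand: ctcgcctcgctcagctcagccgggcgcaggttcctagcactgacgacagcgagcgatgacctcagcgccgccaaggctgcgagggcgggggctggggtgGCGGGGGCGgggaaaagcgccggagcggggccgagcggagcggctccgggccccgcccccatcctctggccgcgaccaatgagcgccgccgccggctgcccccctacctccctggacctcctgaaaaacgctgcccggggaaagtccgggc
SESN1, chr6:109008989-109009238, - strand: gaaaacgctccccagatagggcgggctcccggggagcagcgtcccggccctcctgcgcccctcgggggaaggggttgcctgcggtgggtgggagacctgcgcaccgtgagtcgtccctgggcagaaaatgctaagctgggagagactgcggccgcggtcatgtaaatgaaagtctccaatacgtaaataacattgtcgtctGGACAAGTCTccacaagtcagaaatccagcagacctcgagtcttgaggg
PLK3, chr1:44800127-44800376, + strand: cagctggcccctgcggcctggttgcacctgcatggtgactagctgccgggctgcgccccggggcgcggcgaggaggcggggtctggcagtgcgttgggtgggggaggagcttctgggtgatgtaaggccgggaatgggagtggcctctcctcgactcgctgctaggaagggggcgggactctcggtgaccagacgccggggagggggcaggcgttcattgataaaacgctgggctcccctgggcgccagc

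The motifs were the p53 decamer (the repeat unit of the p53 response element), the cyclic AMP response element TGACGTCA, the AP-1 site TGANTCA, the FOXO site TGTTTAC, the E-box CACGTG, the EGR1 site GCGGGGGCG and the GC box GGGCGG, which can overlap the EGR1 site. Among the 14 member promoters, searched over 300 bases that include 50 after the start, the p53 decamer was found in 1, the SESN1 window printed above, as GGACAAGTCT at base -49 from the start site. It was found in 6.63% of all 35116 promoters. The FOXO site was found in BTG1 at base -209 (3.42% of all promoters), the E-box in GADD45B at -168 and in GADD45G at -143 (7.26%), and the EGR1 site in GADD45B at -159 and in BTG2 at -151 (5.07%). An AP-1 site lay in a pair of overlapping MDM2 windows (7.71%), and the cyclic AMP response element in no member promoter (1.85%). The GC box lay in 11 of the 14 entries and in 45% of all promoters. PLK3 held GC boxes alone. A match describes the letters of the window and nothing about binding. Only exact matches were searched, so a window without a match, such as those of MDM2 for the p53 decamer, may still hold a site that departs from these letters.

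Of the 10 members, 9 could be tested. Against DMSO, 7 of these 9 were called in at least 1 drug-treated group, where 47.2% of all tested genes were called. MDM2 and ZMAT3 were the 2 that were not. With luteolin, 1 member was higher (background 7.22%) and 0 were lower (6.17%). With gefitinib, 2 members were higher (15.6%) and 4 were lower (14.3%). With both drugs, 2 members were higher (12.1%) and 0 were lower (7.69%). The median change of the 9 members was 0.68 with luteolin, -0.19 with gefitinib and 0.44 with both, beside medians of 0.08, 0.22 and 0.16 over all tested genes.

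**Figure D1:**
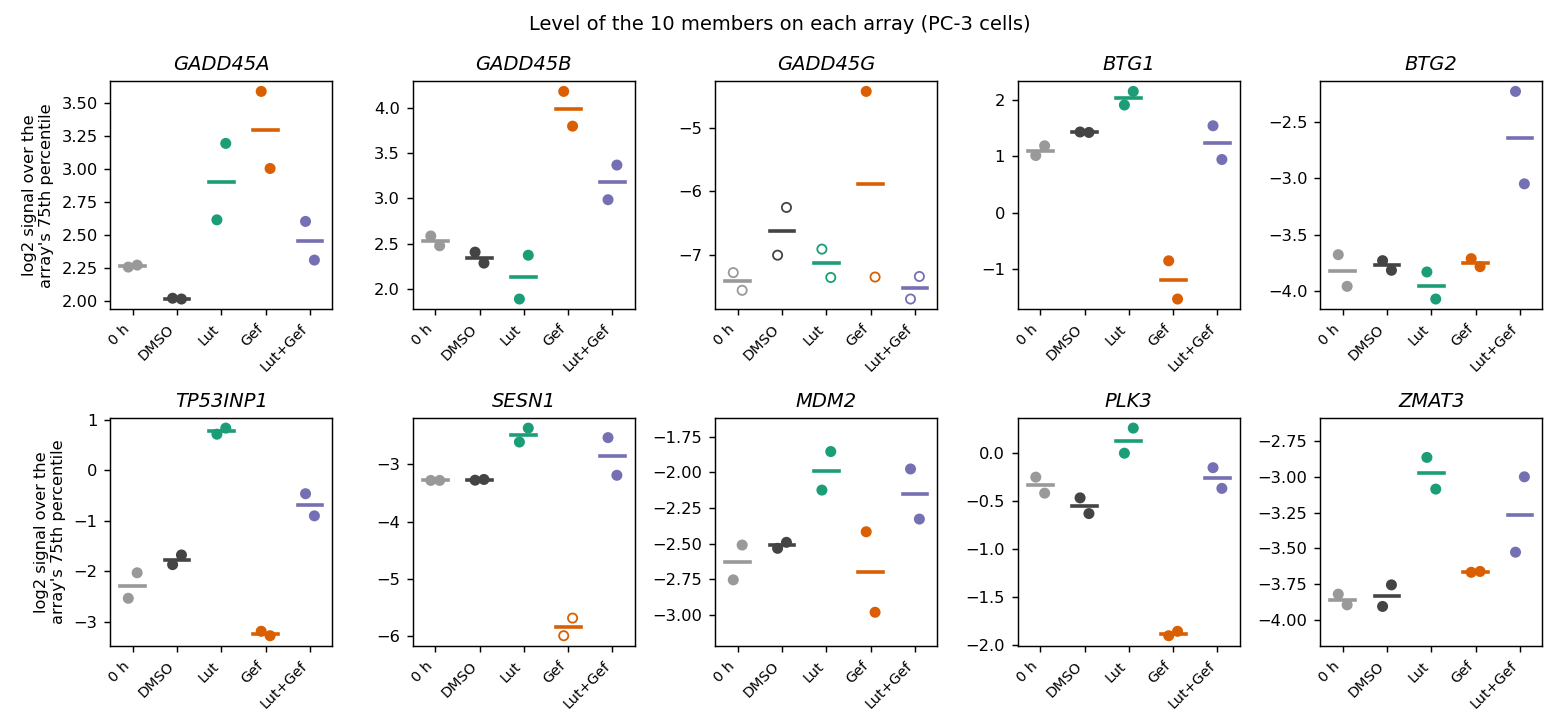
Log2 signal over the array's 75th percentile (y axis, its own range in each panel) of the 10 members on the 2 arrays of each group (x axis; Lut, luteolin; Gef, gefitinib). Points are arrays, bars are group means, and open points mark arrays on which the probe was not well above background. TP53INP1 was highest with luteolin and lowest with gefitinib, and BTG1, SESN1 and PLK3 were lowest with gefitinib.

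The GADD45 genes encode small stress-induced adaptors that bind MAP3K4, PCNA and the CDK1 and cyclin B1 complex. GADD45A gave values of 2.02 and 2.02 on the DMSO arrays and of 3.59 and 3.00 on the gefitinib arrays. The groups did not overlap, and the gene rose by 1.28 ± 0.25 (SE, n = 2 against 2; adjusted p from limma = 0.0043). With luteolin the values were 2.62 and 3.19, a difference of 0.89 ± 0.25 (adjusted p from limma = 0.035) that was under 2-fold. With both drugs they were 2.60 and 2.31, close to 2.26 and 2.27 at 0 h, and the difference from DMSO was 0.44 ± 0.25 (adjusted p from limma = 0.19). After scaling, GADD45A was higher than in DMSO cells on every drug-treated array, and the luteolin and gefitinib arrays overlapped. Before scaling, its signals were 5480 and 5188 with DMSO, 7187 and 9528 with luteolin, 7825 and 5043 with gefitinib and 5254 and 2678 with both. The unscaled signals with gefitinib and with both drugs thus overlapped those with DMSO, and those with luteolin did not. Without luteolin replicate 1 the difference with luteolin was called (1.18). Its call with gefitinib was lost with quantile normalization (0.88) and without gefitinib replicate 1 (0.99).

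GADD45B gave 2.41 and 2.29 on the DMSO arrays and 4.18 and 3.80 on the gefitinib arrays. It rose by 1.64 ± 0.23 with gefitinib (n = 2 against 2; adjusted p from limma = 0.0011). With both drugs it gave 2.99 and 3.37, above both DMSO arrays and below both gefitinib arrays, a difference of 0.83 ± 0.23 from DMSO (adjusted p from limma = 0.022) that was under 2-fold but reached 1.02 without luteolin plus gefitinib replicate 1. With luteolin it gave 1.89 and 2.37, a range that overlapped the DMSO arrays, and the difference was -0.22 ± 0.23 (95% confidence interval -0.73 to 0.30). Its dimmer probe gave the same order of groups and changes of 1.84, 0.95 and -0.24 with gefitinib, both drugs and luteolin. Before scaling, the brighter probe had signals of 6845 and 5570 with both drugs, which overlapped 7158 and 6259 with DMSO. With gefitinib the unscaled signals were 11790 and 8729, above both DMSO arrays.

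GADD45G, the remaining member of the family, exceeded background clearly on gefitinib replicate 1 alone. Its signals were between 3.32 and 16.8 on the other 9 arrays and 30.4 on that one, while gefitinib replicate 2 had 3.84. It was not kept by the filter on dim probes and was not tested.

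BTG1 and BTG2 encode related antiproliferative proteins that bind the CCR4-NOT deadenylase. They did not move together. BTG1 gave 1.43 and 1.42 on the DMSO arrays and -0.85 and -1.53 on the gefitinib arrays. It fell by 2.61 ± 0.27 on the log2 scale with gefitinib, 6.11-fold (n = 2 against 2; adjusted p from limma = 0.00031), which placed it 379 of 19718 genes by size of fall. With both drugs it gave 1.54 and 0.94, on either side of the DMSO arrays, a difference of -0.18 ± 0.27 (95% confidence interval -0.80 to 0.43). With luteolin it gave 1.90 and 2.14, above both DMSO arrays, a difference of 0.60 ± 0.27 that did not pass the test (adjusted p from limma = 0.14). BTG1 was thus low on the gefitinib arrays, and not on those with both drugs.

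BTG2 gave -3.73 and -3.82 with DMSO, -3.83 and -4.07 with luteolin, and -3.71 and -3.78 with gefitinib. With both drugs it gave -2.23 and -3.05, above all other arrays, and rose by 1.13 ± 0.26 (n = 2 against 2; adjusted p from limma = 0.012). This was a dim probe, with signals of 184 and 65.1 on the arrays with both drugs and 102 and 91.2 on the DMSO arrays. Before scaling, its signals were 82.49 and 62.05 with luteolin and 49.65 and 45.66 with gefitinib, all below both DMSO arrays. The call rests on few arrays: the rise was 0.72 without luteolin plus gefitinib replicate 1, and its adjusted p from limma was 0.055 without DMSO replicate 1 and 0.068 without DMSO replicate 2. With quantile normalization it was 0.96.

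TP53INP1, which encodes a stress protein that promotes cell death and autophagy, moved most with luteolin. Its values were -1.87 and -1.68 with DMSO and 0.71 and 0.83 with luteolin. It rose by 2.55 ± 0.22, 5.84-fold (n = 2 against 2; adjusted p from limma = 0.00053), which placed it 87 of 19718 genes by size of rise. With gefitinib it went the other way, to -3.19 and -3.28, and fell by 1.46 ± 0.22 on the log2 scale (adjusted p from limma = 0.0016). With both drugs it gave -0.47 and -0.91, between the DMSO and the luteolin arrays, and rose by 1.09 ± 0.22 (adjusted p from limma = 0.0075). Before scaling, the signals of TP53INP1 with both drugs were 625 and 288, on either side of those with DMSO (369 and 400). The unscaled signals with luteolin (1920 and 1852) were above both DMSO arrays, and those with gefitinib (71.2 and 64.7) were below. The luteolin and gefitinib groups differed by 4.01 ± 0.22 (adjusted p from limma = 2.7e-05). The rise with luteolin was at least 2-fold in every alternative that kept the label groups. The rise with both drugs fell under 2-fold when the array median was used for scaling (0.97) and without luteolin plus gefitinib replicate 1 (0.87), and its adjusted p from limma was 0.056 without DMSO replicate 1. The fall with gefitinib was under 2-fold after normexp background correction (-0.82).

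**Figure D2:**
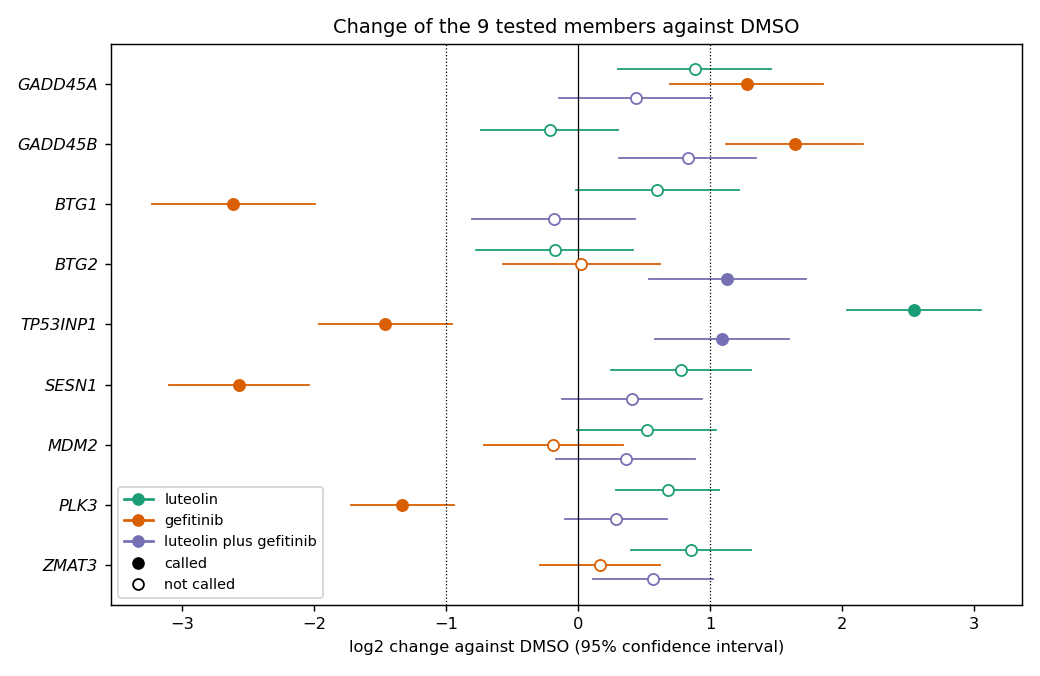
Log2 change against DMSO (x axis) of the 9 tested members (y axis) with luteolin, gefitinib or both. Points are estimates from the fit of all 10 arrays, lines are 95% confidence intervals, filled points were called and dotted lines mark 2-fold. The 4 falls were all with gefitinib (that of SESN1 uses values not well above background), and the points for luteolin lay above 0 for 7 of the 9 genes.

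SESN1 encodes sestrin 1, which restrains mTORC1 and takes part in antioxidant defence. Its brighter probe gave -3.28 and -3.26 with DMSO and -3.28 on both arrays at 0 h. On the gefitinib arrays its signals were 10.3 and 12.3, against 140 and 134 with DMSO, and the probe was not well above background on either gefitinib array. SESN1 was therefore at least 3.44-fold lower with gefitinib than with DMSO, and the fit on the measured values gave an adjusted p from limma of 0.00018. After normexp, a background correction with an offset of 50 added to each signal, the difference was -0.51 and the call was lost, and this size is under the bound just given. With luteolin it gave -2.61 and -2.37, above both DMSO arrays, a difference of 0.78 ± 0.23 (adjusted p from limma = 0.040) that was under 2-fold. With both drugs it gave -2.53 and -3.19, also above both DMSO arrays, with a difference of 0.41 ± 0.23 that did not pass the test (adjusted p from limma = 0.18). The dimmer probe was not well above background on the gefitinib arrays either. Its DMSO level was too close to the floor for a bound against DMSO, and against 0 h it was at least 1.145-fold lower. Its measured values differed from DMSO by -1.003 with gefitinib, where those of the brighter probe differed by -2.57.

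PLK3 encodes a polo-like kinase of the stress response. It gave -0.47 and -0.63 with DMSO and -1.91 and -1.86 with gefitinib, a fall by 1.33 ± 0.17 on the log2 scale, 2.52-fold (n = 2 against 2; adjusted p from limma = 0.00075). With luteolin it gave -0.0028 and 0.26, a difference of 0.68 ± 0.17 (adjusted p from limma = 0.021) that was under 2-fold. With both drugs it gave -0.15 and -0.37, and the difference of 0.29 ± 0.17 did not pass the test (adjusted p from limma = 0.20). PLK3, SESN1 and BTG1 thus all had their lowest values on the gefitinib arrays.

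ZMAT3 encodes an RNA-binding zinc finger protein. Its values were -3.91 and -3.76 with DMSO, -2.86 and -3.08 with luteolin, -3.67 and -3.66 with gefitinib and -3.53 and -2.998 with both. The luteolin arrays were above the DMSO arrays by 0.86 ± 0.20 (adjusted p from limma = 0.016), under 2-fold, and the difference was 0.57 ± 0.20 with both drugs (adjusted p from limma = 0.051) and 0.17 ± 0.20 with gefitinib (adjusted p from limma = 0.50).

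MDM2, the feedback member, was called in no comparison with DMSO. Its brighter probe gave -2.53 and -2.49 with DMSO, -2.12 and -1.85 with luteolin, -2.42 and -2.98 with gefitinib and -1.98 and -2.33 with both. The differences from DMSO were 0.52 (95% confidence interval -0.0049 to 1.05) with luteolin, -0.19 (-0.71 to 0.34) with gefitinib and 0.36 (-0.17 to 0.89) with both. The other MDM2 probe, printed as 10 spots, was not well above background on the gefitinib arrays or on luteolin plus gefitinib replicate 2. It differed from DMSO by 0.64 with luteolin (adjusted p from limma = 0.070).

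**Figure D3:**
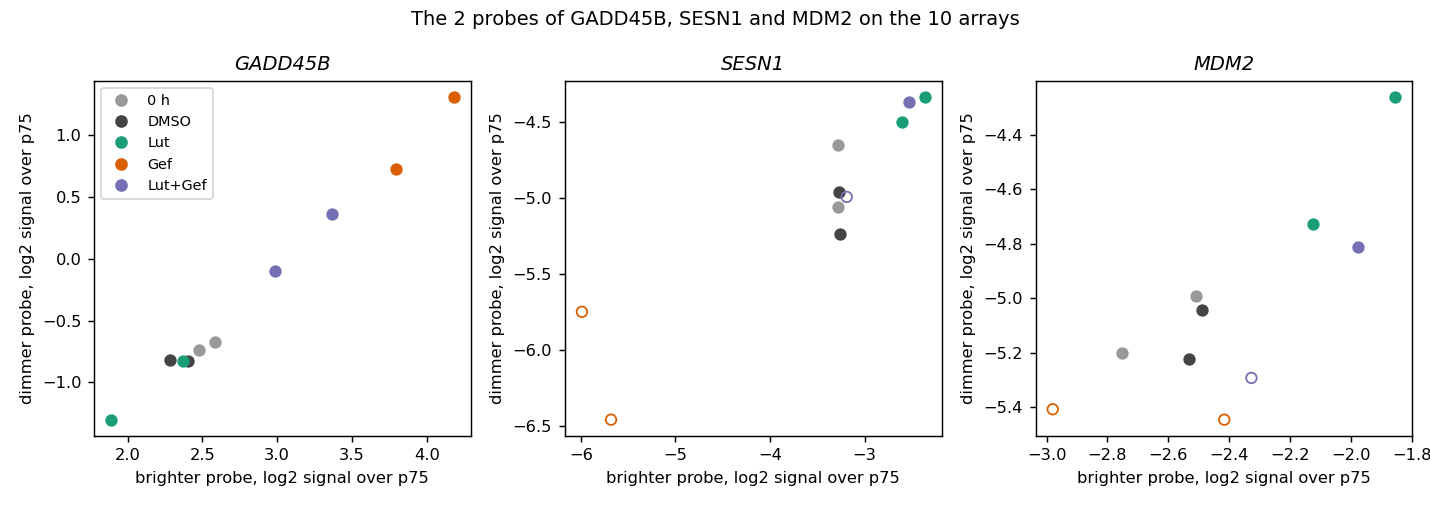
Log2 signal over the array's 75th percentile of the dimmer probe (y axis) against the brighter probe (x axis) of GADD45B, SESN1 and MDM2. Points are the 10 arrays, colored by group, and open points mark arrays on which either probe was not well above background. The GADD45B probes rose and fell together (Pearson r 0.997), and 3 arrays each are open for SESN1 and MDM2.

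Across the 10 arrays the 2 probes of a gene followed each other with a Pearson r of 0.997 for GADD45B, 0.914 for SESN1 and 0.792 for MDM2. For SESN1 and MDM2, both probes were well above background on 7 arrays, over which r was 0.867 and 0.899, so the order of these genes turned. The points share the groups and the arrays, so these are descriptions.

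With luteolin, 5 members had an adjusted p from limma under 0.05 and were higher when no minimum fold was asked (GADD45A, TP53INP1, SESN1, PLK3 and ZMAT3), where 14.3% of all tested genes were. With slide as a block the adjusted p from limma was 0.051 for GADD45A and 0.066 for SESN1 in this comparison, and with the replicate block it was 0.051 for SESN1. The count of 5 fell to 1, TP53INP1, without DMSO replicate 1, without DMSO replicate 2 or without luteolin replicate 2, and to 3 without luteolin replicate 1 or either 0 h array.

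The slides held DMSO, luteolin and both drugs together on slides 1 and 3, and gefitinib beside DMSO on slide 3 alone. The rise of TP53INP1 with luteolin was 2.51 within slide 1 and 2.58 within slide 3. Its rise with both drugs was 0.77 and 1.40, and that of BTG2 was 0.76 and 1.50. Within slide 3, the gefitinib differences were 1.57 for GADD45A, 1.77 for GADD45B, -2.28 for BTG1, -1.32 for TP53INP1, -2.71 for SESN1 (below background with gefitinib) and -1.44 for PLK3. The gefitinib array of slide 2 lay beside an array at 0 h, from which it differed by 0.75 for GADD45A, 1.21 for GADD45B, -2.54 for BTG1, -0.74 for TP53INP1 and -1.61 for PLK3. With slide as a block in the fit, the gefitinib differences from DMSO were 1.43, 1.75, -2.44, -1.31 and -1.40 in the same order of genes, and all of these calls were kept.

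The median of all tested genes moved with the scaling: the median gefitinib difference was 0.22 with the 75th percentile, 0.24 with the array median, 0.05 with quantile normalization and 0.37 after normexp. Relative to the median of all genes, the gefitinib changes were 1.06 for GADD45A, 1.42 for GADD45B, -2.83 for BTG1, -1.68 for TP53INP1 and -1.55 for PLK3. The luteolin change of TP53INP1 was 2.46 on this scale, and with both drugs BTG2 was at 0.97 and TP53INP1 at 0.93, both under 2-fold.

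The design crossed the drugs, so the change with both could be set against the sum of the single changes. This interaction passed an adjusted p of 0.05 in 5 of the 9 members, where 34.2% of all tested genes did. For BTG1 the single changes summed to -2.01 and the change with both drugs was -0.18, an interaction of 1.83 ± 0.38 (adjusted p from limma = 0.0078). For PLK3 the sum was -0.65 and the observed change 0.29, an interaction of 0.94 ± 0.24 (adjusted p from limma = 0.018). SESN1 had a positive interaction as well (adjusted p from limma = 0.0019), whose size of 2.19 uses gefitinib values below background. These genes were low with gefitinib and near the DMSO level when luteolin was also present.

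For GADD45A the interaction was negative: the single changes summed to 2.16 and the observed change was 0.44 (-1.73 ± 0.36; adjusted p from limma = 0.0077). BTG2 was called with neither drug alone. Its 95% confidence intervals were -0.77 to 0.42 with luteolin and -0.57 to 0.62 with gefitinib. Its single changes summed to -0.15 and the observed change was 1.13, an interaction of 1.28 ± 0.37 (adjusted p from limma = 0.028). TP53INP1 lay on the sum, at 1.09 observed and 1.09 expected, an interaction of 0.0018 with a 95% confidence interval from -0.71 to 0.72. For GADD45B the interaction was -0.60 (-1.33 to 0.14), for ZMAT3 -0.46 (-1.10 to 0.19) and for MDM2 0.02 (-0.72 to 0.77). The BTG2 interaction was lost when any 1 of 5 arrays was left out, namely either DMSO array, either gefitinib array or luteolin replicate 2, and that of PLK3 without DMSO replicate 1 (0.86) or luteolin replicate 1 (0.81). The BTG2 interaction was also lost after normexp (0.63; adjusted p from limma = 0.055) and when no dim probe was left out (adjusted p from limma = 0.058). The SESN1 interaction was lost after normexp (0.42) and as the median of both probes (1.47), and ZMAT3 gained a call without luteolin plus gefitinib replicate 2 (-0.72). With the treatments of the file names, 7 members passed. Read in that way, the interaction took the opposite sign in GADD45B, BTG1, BTG2, TP53INP1, SESN1, MDM2 and PLK3, and that of GADD45A was -0.05 (adjusted p from limma = 0.93).

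**Figure D4:**
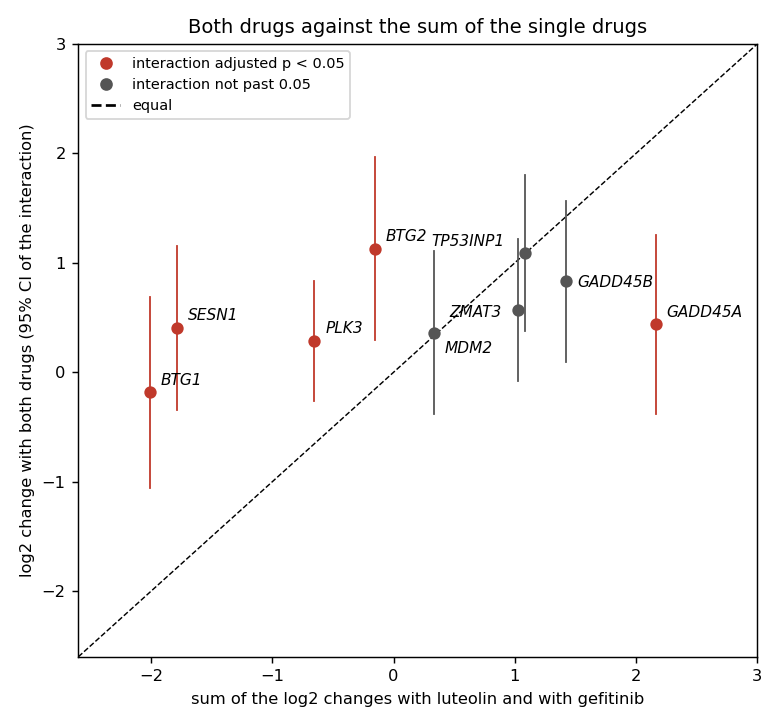
Log2 change with both drugs against DMSO (y axis) against the sum of the changes with luteolin and with gefitinib (x axis) for the 9 tested members. Vertical lines are 95% confidence intervals of the interaction, the dashed line marks equality, and red points passed an adjusted p of 0.05. BTG1, SESN1, PLK3 and BTG2 lay above the line and GADD45A below it, and the SESN1 point uses gefitinib values not well above background.

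Between the drug-treated groups, 6 of the 9 members were called in at least 1 of the 3 pairs, where 52.5% of all tested genes were. Luteolin and gefitinib differed in 5 members (background 36.6%): BTG1, TP53INP1, SESN1 and PLK3 were higher and GADD45B was lower with luteolin. The difference was 3.21 ± 0.27 for BTG1 and 2.01 ± 0.17 for PLK3 (adjusted p from limma = 8.7e-05 and 9.0e-05), and SESN1 was at least 5.92-fold higher. Both drugs against luteolin gave 3 members (21%), GADD45B and BTG2 higher and TP53INP1 lower, and both drugs against gefitinib gave 5 (27%), all of them higher: BTG1, BTG2, TP53INP1, SESN1 and PLK3. In the last comparison BTG1 differed by 2.43 ± 0.27, TP53INP1 by 2.55 ± 0.22 and PLK3 by 1.62 ± 0.17, and SESN1 was at least 4.57-fold higher. These comparisons share arrays with each other and with those above.

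Between DMSO and 0 h, 0 of the 9 members were called with limma where 0.0355% of all tested genes (7) were called, and 1 member had an unadjusted p under 0.05, as did 6.17% of all tested genes. The member was TP53INP1, with values of -2.54 and -2.03 at 0 h and a difference of 0.51 ± 0.22 (adjusted p from limma = 0.82). Against the 0 h arrays, 1 member was called with luteolin (TP53INP1; background 16.1%), 5 with gefitinib (GADD45A, GADD45B, BTG1, SESN1 and PLK3; 29%) and 2 with both drugs (BTG2 and TP53INP1; 19.8%). TP53INP1 was lower than at 0 h by 0.95 ± 0.22 with gefitinib, which was under 2-fold. Without a minimum fold, 4 members passed with luteolin against 0 h, where 30.4% of all tested genes did.

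TP63 and TP73, relatives of p53, gave no signal that could be tested. TP63 was well above background in 2 of 20 probe and array pairs and TP73 in 3 of 20. MDM4, the relative of MDM2 that also binds p53, rose by 1.01 ± 0.20 with both drugs (adjusted p from limma = 0.0073), was 0.75 higher with gefitinib (adjusted p from limma = 0.015) and differed by -0.0022 ± 0.20 with luteolin. Of 14 tested genes on a list of p53 relatives and regulators, CDKN2A, the locus of the MDM2 inhibitor ARF, rose in all 3 drug-treated groups, by 1.30, 1.65 and 1.10 with luteolin, gefitinib and both. The checkpoint kinase CHEK1 fell with luteolin (-1.03), and RCHY1, DYRK2, EP300 and TP53BP1 fell with gefitinib (-1.71, -1.43, -1.34 and -1.22). Against DMSO, 1, 1 and 2 of the 14 were higher with luteolin, gefitinib and both (7.14%, 7.14% and 14.3%) and 1, 4 and 0 were lower (7.14%, 28.6% and 0%), beside 7.22%, 15.6% and 12.1% higher and 6.17%, 14.3% and 7.69% lower among all tested genes. The median of these 14 genes was -0.13, -0.38 and -0.25 with luteolin, gefitinib and both.

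Of a further list of p53 targets, 29 of 30 genes were tested. With luteolin 5 were higher and 0 lower, with gefitinib 5 were higher and 3 lower, and with both drugs 5 were higher and 3 lower, with medians of 0.17, -0.08 and -0.15. The shares higher were 17.2% in each group, beside 7.22%, 15.6% and 12.1% of all tested genes with luteolin, gefitinib and both, and the shares lower were 0%, 10.3% and 10.3%, beside 6.17%, 14.3% and 7.69%. CDKN1A, which encodes the cyclin-dependent kinase inhibitor p21, rose against DMSO in all 3 groups. Against 0 h, its changes were 1.43, 0.83 and 1.12 with luteolin, gefitinib and both. That with gefitinib did not pass the test (adjusted p from limma = 0.064). Its values were -1.15 and -1.13 with DMSO, 0.68 and 0.98 with luteolin, 0.82 and -0.37 with gefitinib and 0.46 and 0.57 with both, and the changes were 1.97, 1.37 and 1.66 ± 0.33 (adjusted p from limma = 0.0046, 0.0097 and 0.0072). PMAIP1, which encodes the death protein NOXA, rose as well in all 3 groups, by 1.22, 1.20 and 1.94. GDF15, a secreted stress cytokine, rose by 2.69 with luteolin and 2.50 with both drugs and differed by -0.05 with gefitinib (adjusted p from limma = 0.91).

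SESN2, the paralog of SESN1, gave -3.19 and -2.93 with DMSO and -1.35 and -0.37 with luteolin, and rose by 2.20 (adjusted p from limma = 0.018). It differed by 1.39 with both drugs (adjusted p from limma = 0.063) and by -0.54 with gefitinib (adjusted p from limma = 0.41). With gefitinib the 3 further targets that were lower were PLK2, a relative of PLK3 (-2.54), the polymerase gene POLH (-2.23) and the phosphatase gene PPM1D (-1.95). SPATA18, a mitochondrial quality gene, rose by 1.65 with gefitinib. With both drugs POLH, TP53I3 and NINJ1 fell (-1.87, -1.46 and -1.003).

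Among 11 tested relatives of the members, 1 was higher and 2 were lower with luteolin, 1 was higher and 5 were lower with gefitinib, and 2 were higher and 1 was lower with both, with medians of -0.10, -0.54 and -0.01. The shares higher were 9.09%, 9.09% and 18.2%, beside 7.22%, 15.6% and 12.1% of all tested genes with luteolin, gefitinib and both. The shares lower were 18.2%, 45.5% and 9.09%, beside 6.17%, 14.3% and 7.69%. SESN2, PLK2 and MDM4 stand on this list and also on those above. TOB1 and TOB2, antiproliferative relatives of BTG1, fell with gefitinib (-1.69 and -1.32), as BTG1 did, and BTG3 rose (1.06). The mitotic kinase PLK1 fell against DMSO in all 3 groups (-2.27, -1.07 and -2.63 with luteolin, gefitinib and both). Against 0 h, its change with gefitinib was -0.57 and did not pass the test (adjusted p from limma = 0.066). All 8 GADD45 partners were tested: 1 was higher in each group (CDKN1A), and 3, 2 and 2 were lower with luteolin, gefitinib and both, with medians of -0.01, -0.50 and -0.44. The share higher was 12.5% in each group, beside 7.22%, 15.6% and 12.1% of all tested genes. CDKN1A was also counted among the further p53 targets. The shares lower were 37.5%, 25% and 25%, beside 6.17%, 14.3% and 7.69% of all tested genes. CCNB1, which encodes cyclin B1, fell against DMSO in all 3 (-1.94, -1.86 and -2.06). Against 0 h its changes were smaller (-0.88, -0.80 and -1.002).

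Of 14 factors other than p53 that are known to act on the members, all were tested. With luteolin 5 were higher and 4 lower, with gefitinib 2 were higher and 1 lower, and with both drugs 3 were higher and 0 lower, with medians of 0.42, 0.11 and 0.42. The shares higher were 35.7%, 14.3% and 21.4%, beside 7.22%, 15.6% and 12.1% of all tested genes, and the shares lower were 28.6%, 7.14% and 0%, beside 6.17%, 14.3% and 7.69%. ATF4, the central factor of the integrated stress response, rose by 1.92 with luteolin and 1.48 with both and differed by 0.61 with gefitinib (adjusted p from limma = 0.13). ATF3 rose in all 3 groups, by 1.89, 3.14 and 2.61. FOXO1 rose by 1.10 with luteolin and fell by 1.22 on the log2 scale with gefitinib. BRCA1, E2F1 and SMAD3 fell with luteolin (-2.27, -1.85 and -1.79). EGR1, an immediate-early factor, gave -2.74 and -4.87 with DMSO and was not well above background on either luteolin array or at 0 h. It was at least 3.31-fold lower with luteolin than with DMSO (adjusted p from limma = 0.0105). The part of any of these factors in the members' changes was not tested.

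For 8 members well above background on all 10 arrays, the other gene with the most similar profile was sought among 11062 genes with a RefSeq symbol. Over the 10 arrays, BTG1 was most like SEMA4C (Pearson r 0.998), TP53INP1 like C11orf54 (0.992), PLK3 like SETDB1 (0.991), GADD45B like MAP2K3 (0.986), GADD45A like SNHG11 (0.974), MDM2 like CITED2 (0.973), ZMAT3 like RASA4 (0.969) and BTG2 like HEMK2 (0.934, with a Spearman rho of 0.297). Among these 8 members, BTG1 and PLK3 were closest (0.958), and GADD45B and BTG1 were furthest apart (-0.866). These values describe arrays that share 5 groups, and the highest of many values is large by construction.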

How the data were processed

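Total RNA of PC-3 cells was labelled with Cy3 and hybridized by the authors to Agilent whole human genome arrays, and each array's Feature Extraction output (version 10.7.3.1 per the file headers) was deposited. The deposited intensity is the processed signal, which the software had already corrected for background. The series value table held the same signals on every spot (relative tolerance 1e-04). Probe positions in the files are on hg18.

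The log2 of the processed signal was taken relative to the array's 75th percentile over spots that were not controls. Outlier spots were left out, spots of a probe were averaged, and a probe was kept if, in 1 group or more, both arrays had it well above background (28776 of 41000 probes). A single fit over 5 groups with limma (version 3.58.1 in R 4.3.3) gave all comparisons, with 5 residual degrees of freedom and Benjamini-Hochberg adjustment over the probes kept. The labels call the 2 arrays of a group biological replicates and do not name separate cultures, so the p-values measure the spread between these arrays, which may be technical, and their number limits the precision. Leaving out an array left 1 in its group, which was assumed to vary like the others. The fit was tested on simulated data. For a group with no array well above background, a bound was taken from the lowest signal well above background on each array.

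Members, lists and tests were chosen with earlier results of these data known. The text names all members; TP63, TP73, MDM4, CDKN1A and SESN2; for each drug-treated group of the further targets that were called, the 3 that rose most and the 3 that fell most; and the gene most like each member. Other genes were named after their values were seen, and some genes of the lists are not reported here. Alternatives were the background correction, scaling, filters, blocks, labels, the methods' 1-sample test on log2 ratios against the 0 h mean, and leaving out each array.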

Additional observations from a re-analysis of the deposited data

Results flagged for a closer look

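In 5 of the 9 tested members the effect of one drug differed with and without the other by the test of the interaction itself (limma, adjusted over all probes kept). Of all tested genes, 34.2% passed the same test. The interaction, the log2 change under the combination less the summed single changes, was -1.73 for GADD45A, 1.83 for BTG1, 1.28 for BTG2, 2.19 for SESN1 and 0.94 for PLK3. The SESN1 value uses gefitinib arrays on which its probe was not well above background. These are the interactions under the sample labels. With the treatments of the file names, those of BTG1, BTG2, SESN1 and PLK3 took the opposite sign, and that of GADD45A was -0.05. The signal at the 75th percentile was lower on the gefitinib arrays and on those with both drugs than on the DMSO arrays, and its part in these values was not tested. Groups of 2 arrays are too small for a test of outlying samples.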

How the results depend on the processing

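Counts of members called, out of 9, are given here where they differed from those above. With normexp background correction, 2 members were lower with gefitinib against DMSO (TP53INP1 at -0.82 and SESN1 at -0.51 were no longer called), 3 were called with gefitinib against 0 h and 3 for the interaction. With quantile normalization, 1 was higher with gefitinib, 1 was higher with both drugs and 3 were called with gefitinib against 0 h. With the array median for scaling, 1 was higher with both drugs. Without a minimum fold, 5 were higher with luteolin and 3 with both drugs against DMSO. Against 0 h, 4, 6 and 3 were then called with luteolin, gefitinib and both. All 9 were then called in at least 1 pair of drug-treated groups. By the methods' 1-sample test, 2 were called with gefitinib and 0 with both drugs against 0 h without adjustment, and 0 in each of the 3 drug-treated groups after adjustment. The cause of these differences was not tested, except that removing the minimum fold admits smaller changes.

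With the treatments of the file names, 2 members were higher with luteolin, 1 was higher and 0 were lower with gefitinib, 4 were lower with both drugs, and 2, 1 and 5 were called against 0 h with luteolin, gefitinib and both. These are the same arrays under other names. Read in this way, the changes against DMSO that took the opposite sign, and were called under either reading, were 1.13 for BTG2 with luteolin; -0.22 for GADD45B, 0.60 for BTG1, 2.55 for TP53INP1, 0.78 for SESN1 and 0.68 for PLK3 with gefitinib; and -1.46 for TP53INP1, -2.57 for SESN1 and -1.33 for PLK3 with both drugs. A further 5 changes, called under neither reading, also took the opposite sign (GADD45B and BTG1 with luteolin, BTG2 and MDM2 with gefitinib, and MDM2 with both drugs). The interactions of opposite sign were 1.03 for GADD45B, -3.03 for BTG1, -0.93 for BTG2, -5.10 for TP53INP1, -3.76 for SESN1, -1.07 for MDM2 and -2.30 for PLK3, and that of GADD45A was -0.05 in place of -1.73. The SESN1 values of -2.57 and -3.76 use arrays on which its probe was not well above background, so their size is not measured.

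When each array was left out in turn, the number of members higher was 1 to 2 with luteolin, 1 to 2 with gefitinib and 0 to 2 with both drugs, and the number called was 1 to 2 with both drugs against 0 h and 3 to 6 for the interaction. The count of 0 with both drugs came without DMSO replicate 1, and the count of 1 against 0 h came without luteolin plus gefitinib replicate 1 or 0 h replicate 2. The 4 falls with gefitinib were counted in each of these fits.

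With the replicate block, all 12 counts were those given above (for example 4 members lower with gefitinib). The replicate numbers are not known to pair the arrays: same-numbered deviations correlated between groups by -0.0934 to 0.289. With slide as a block, with the series value table, with the groups compared alone, with every probe kept and with the median over a gene's probes, the 12 counts stayed within 1.5 times those given above, and likewise with probes well above background on all arrays, where SESN1 drops out. Signal over background limits GADD45G, SESN1 and the dimmer MDM2 probe with gefitinib, and 2 arrays a group limit all comparisons.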
